A study of Homo sapiens with 8 samples.

Results

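SETD7 knockout and wild-type H1 cells were compared at day 0, before differentiation, in a table of FPKM values, which scale fragments to transcript length and library size, with 1 library per genotype. Of the 14070 genes in that table, 13284 (94.4%) had at least 1 FPKM in either library and make up the comparison. The other 786 stayed under 1 FPKM in both libraries, and 66 of these were listed at 0 in both. For each gene the difference is given as log2((knockout FPKM + 1)/(wild type FPKM + 1)), called the day 0 ratio here. With 1 library on each side the day 0 differences have no error and no test, so each value describes these 2 libraries.

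H1 is an established human embryonic stem cell line. The labels give both day 0 samples as H1 cells kept in mTESR, a defined stem cell medium, the wild type as WT and the knockout as SETD7 KO, and they assign all 8 samples of the series to a hematopoietic differentiation. The day 2 samples, 3 WT and 3 SETD7 KO libraries of the same line, were deposited as counts and serve as a separate readout of the same genotypes. The labels do not say how the knockout was made, how many clones it holds or whether the day 2 libraries came from separate cultures, so the spread behind the day 2 p-values may be technical.

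SETD7 is a lysine methyltransferase that adds a single methyl group to histone H3 lysine 4 and to many other proteins, among them transcription factors. Primed human embryonic stem cells keep their undifferentiated state with a core of transcription factors that includes POU5F1, SOX2 and NANOG, supported by Activin or Nodal signals through SMAD2 and SMAD3 and by FGF signals through ERK. Cultured stem cells also carry stress programs that read their medium: ATF4 turns on genes of amino acid synthesis and import when amino acids are short or proteins misfold, MondoA turns on TXNIP when sugar phosphates are plentiful, and MTF1 turns on metallothioneins when free zinc is high.

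The promoter stretches below belong to genes of these programs that hold a match to a motif named here. TXNIP, ATF3, ASNS, CHAC1 and MT1H were past 1.5-fold at day 0, and MT1X barely differed. INHBE, SLC7A11, DDIT3 and PCK2 differed more than ATF3 and ASNS, and the windows of DDIT3 and PCK2 were searched and hold no match. The stretches come from the RefSeq promoter table on GRCh38.p14, are written 5′ to 3′ on the strand of the gene, and were chosen after the values had been seen. Capitals mark matches, on either strand, to 3 motifs searched in the 250 bases before each start: TGATGNAA, the core of amino acid response elements, CACGNG followed after 5 bases by CNCGNG, a form of the carbohydrate response element, and TGCACNC or TGCGCNC, the core of metal response elements.
TXNIP (chr1:145996610-145996729, minus strand): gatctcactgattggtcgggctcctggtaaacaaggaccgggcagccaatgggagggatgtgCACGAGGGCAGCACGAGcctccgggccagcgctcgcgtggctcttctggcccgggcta
ATF3 (chr1:212565157-212565276, plus strand): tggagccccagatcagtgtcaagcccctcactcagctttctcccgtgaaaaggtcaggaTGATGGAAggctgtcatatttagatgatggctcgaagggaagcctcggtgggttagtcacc
ASNS (chr7:97872458-97872487, minus strand): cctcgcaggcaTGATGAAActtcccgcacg
CHAC1 (chr15:40953251-40953280, plus strand): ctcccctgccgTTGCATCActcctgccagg
MT1H (chr16:56669574-56669813, plus strand): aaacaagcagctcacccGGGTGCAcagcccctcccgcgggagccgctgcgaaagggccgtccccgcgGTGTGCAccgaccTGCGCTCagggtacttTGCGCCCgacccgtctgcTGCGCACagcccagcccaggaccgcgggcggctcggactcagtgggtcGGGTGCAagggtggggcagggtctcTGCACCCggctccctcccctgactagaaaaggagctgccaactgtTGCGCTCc
MT1X (chr16:56682310-56682423, plus strand): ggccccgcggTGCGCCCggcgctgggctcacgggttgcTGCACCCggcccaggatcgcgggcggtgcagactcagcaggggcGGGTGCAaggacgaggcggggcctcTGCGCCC
The stretches of TXNIP, ATF3, MT1H and MT1X overlap no GENCODE exon, while those of ASNS and CHAC1 lie within annotated exons of other transcripts. The amino acid response core is in 3.14% of all 35116 promoters and the carbohydrate response motif in 0.424%. The metal response core is in 24.8% of all promoters, and 6.48% hold at least 2 matches. A match describes the letters of the window and shows no binding.

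SETD7 (ENSG00000145391, chromosome 4, 139495941 to 139606699, minus strand) had 3.53 FPKM in the wild-type library and 1.48 FPKM in the knockout library, a day 0 ratio of -0.87. The transcript was thus lower in the library labelled as knockout but not absent. Day 2 levels are given as CPM, counts scaled to library size. SETD7 had 54.8, 56.2 and 55.6 CPM in the 3 WT libraries and 32.9, 28.9 and 33.7 CPM in the 3 SETD7 KO libraries, with no overlap. It fell by 0.80 on the log2 scale there, with an adjusted p of 9.51e-13 in edgeR's quasi-likelihood test. The type of knockout allele is not in the labels, and a knockout allele need not lower its mRNA. The level therefore checks the labels only in part.

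Both libraries carried the transcripts of undifferentiated stem cells. All 14 stem cell markers were above 1 FPKM in both genotypes, and their summed level was 2760 FPKM in wild type and 2906 FPKM in the knockout. Of the 4 mesoderm markers, T and MESP1 stayed under 1 FPKM, MIXL1 reached at most 1.05 FPKM, and KDR had 55.8 FPKM in wild type and 69.8 FPKM in the knockout. The endoderm markers SOX17, FOXA2 and CXCR4 summed to 0.715 and 1.18 FPKM, and of the amnion markers GATA3, CDX2 and TFAP2A were each under 1 FPKM, with CDX2 at 0 in both, while GABRP had 7.40 and 3.002 FPKM. The 4 amnion markers in the table summed to 7.70 and 3.42 FPKM. Of 4 neural markers only TUBB3 is in the table, at 20.02 and 86.7 FPKM. Of 5 fibroblast or feeder markers, 4 are in the table. COL1A1 had 55.0 and 34.1 FPKM, COL3A1 had 0.648 and 1.19 FPKM, and LUM and POSTN stayed under 1 FPKM. None of the 3 blood markers is in the table, and 13 HOX genes in it were all under 1 FPKM.

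The libraries resembled each other across genes, with Pearson's r of 0.966 between their log2(FPKM + 1) values over the 13284 genes. The median day 0 ratio was -0.03, with 6134 genes above 0 and 7150 below. In all, 90% of genes fell between -0.74 and 0.58, the 5th and 95th percentiles. At least 1.5-fold higher in the knockout were 639 genes (4.81%), and at least 1.5-fold lower were 1165 (8.77%). At least 1.5-fold apart either way were 1804 genes (13.6%). The counts in the gene lists below stand beside these shares of all genes. At 2-fold the counts were 152 (1.14%) and 252 (1.9%), together 404 (3.04%). The 1.5-fold limit cuts a continuous spread: 205 genes lay between 1.5-fold and 1.6-fold higher and 314 between 1.4-fold and 1.5-fold higher, with 323 and 494 on the lower side. The mitochondrially encoded genes held 8.21% of all FPKM in wild type and 9.58% in the knockout. FPKM values keep no read totals, so the depth of the day 0 libraries is unknown, while the day 2 libraries held 27880068 to 39553614 counts.

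**Figure D1:**
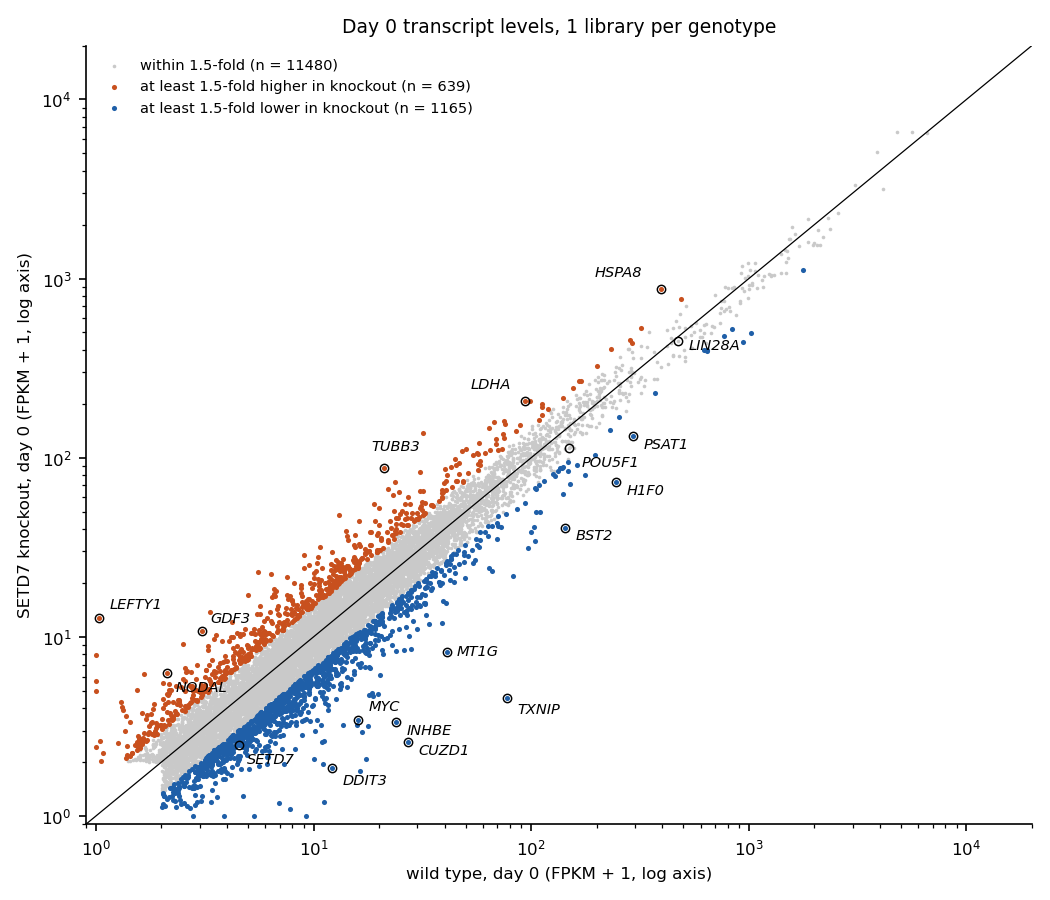
Level of each of the 13284 genes in the wild-type library (x axis, FPKM + 1, log axis) and the SETD7 knockout library (y axis, same scale) at day 0, with genes at least 1.5-fold higher in orange, at least 1.5-fold lower in blue and selected genes ringed. TXNIP, at 76.7 against 3.58 FPKM, lies farthest below the diagonal, and LEFTY1, at 0.0311 against 11.8 FPKM, farthest above it.

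The gene that differed most was TXNIP, which encodes a thioredoxin-binding arrestin that limits glucose uptake. It stood at 76.7 FPKM in wild type against 3.58 FPKM in the knockout, a day 0 ratio of -4.08. ARRDC4, a TXNIP relative that MondoA also turns on, had 10.2 and 1.61 FPKM, a ratio of -2.10. The other 2 arrestins of that kind lay nearer to each other, ARRDC3 at 3.29 and 1.89 FPKM and ARRDC2 at 3.08 and 3.35 FPKM. The carbohydrate response motif lies 88 bases before the start of TXNIP, and no match was found in the windows of the other 3. At day 2 TXNIP was low in both genotypes, at 3.11 ± 0.586 CPM in wild type and 3.67 ± 0.851 CPM in the knockout (SD, n = 3 each), and the libraries overlapped.

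Targets of ATF4 and the amino acid response were lower in the knockout library as a group. Of 26 such genes at 1 FPKM or more, 18 were at least 1.5-fold lower and none was 1.5-fold higher, with a median ratio of -1.09 against -0.03 for all genes. This list was drawn up after the values had been seen. The wider list of amino acid and unfolded protein stress genes shares many of its members, and had 16 of 36 lower and 1 higher, with a median of -0.40.

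The signalling factors and regulators of the program were among them. INHBE, an activin subunit induced by ATF4 in stress, had 22.97 FPKM in wild type against 2.33 FPKM in the knockout, a ratio of -2.85. DDIT3, the stress transcription factor CHOP, had 11.1 and 0.854 FPKM, a ratio of -2.71. Its exons overlap those of MARS and MBD6, so part of its reads cannot be assigned with certainty. ATF3, a stress-induced transcription factor, had 22.8 and 7.35 FPKM, CEBPB had 8.08 and 3.46 FPKM, and ATF5 had 9.27 and 4.52 FPKM. TRIB3, which restrains ATF4, was just past the limit at 6.40 and 3.81 FPKM.

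Enzymes and transporters of amino acid supply followed the same direction. PSAT1, which makes the serine precursor phosphoserine, had 292 FPKM in wild type and 131 FPKM in the knockout, and ASNS, the asparagine synthetase, had 98.5 and 37.7 FPKM. CTH, which makes cysteine from cystathionine, stood at 27.6 and 11.3 FPKM, and SLC7A11, the cystine importer, at 16.99 and 3.76 FPKM. PCK2, the mitochondrial phosphoenolpyruvate carboxykinase, had 81.5 and 20.8 FPKM, a ratio of -1.92. CHAC1, which degrades glutathione, had 17.8 and 3.69 FPKM, and SESN2, a leucine sensor of the mTORC1 pathway, had 16.2 and 5.81 FPKM. DDIT4, an inhibitor of mTORC1, had 139 and 62.0 FPKM.

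Other members of the same pathways differed little. PHGDH, the first enzyme of serine synthesis, had 234 and 190 FPKM, PSPH, the last, had 18.0 and 17.7 FPKM, and CBS, which feeds CTH, had 136 and 154 FPKM. Among the 20 aminoacyl-tRNA synthetases, 4 were at least 1.5-fold lower and none higher: CARS at 29.8 and 13.9 FPKM, AARS at 195 and 103 FPKM, SARS at 127 and 77.7 FPKM, and GARS at 135 and 87.0 FPKM. Chaperones of the endoplasmic reticulum went the other way, with 8 of 11 above 0 and a median of 0.32, where 6134 of all 13284 genes were above 0. Their list and that of the synthetases were also drawn up after the values had been seen. HSPA5, the ER chaperone BiP, had 112 and 191 FPKM, and CALR, a calcium-binding chaperone of the ER, had 278 and 404 FPKM. DNAJB9 and XBP1, targets or effectors of the IRE1 arm, were within 1.5-fold. Motif matches were found in the windows of 3 of the 21 genes that have a promoter in the table: ATF3, ASNS and CHAC1.

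At day 2 the amino acid response list showed no common direction. Of 24 members tested, 4 rose and 2 fell at an adjusted p under 0.05 (edgeR), where 12.3% and 11.0% of all 11475 genes tested did. CHAC1 had 9.95, 11.4 and 8.89 CPM in the wild-type libraries and 9.42, 10.2 and 10.4 CPM in the knockout libraries, which overlap. ATF3 fell by 0.31 (adjusted p = 0.000606), and STC2, a secreted stress glycoprotein that was lower at day 0 (38.2 and 14.9 FPKM), rose by 0.42 (adjusted p = 5.22e-05) on the log2 scale.

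**Figure D2:**
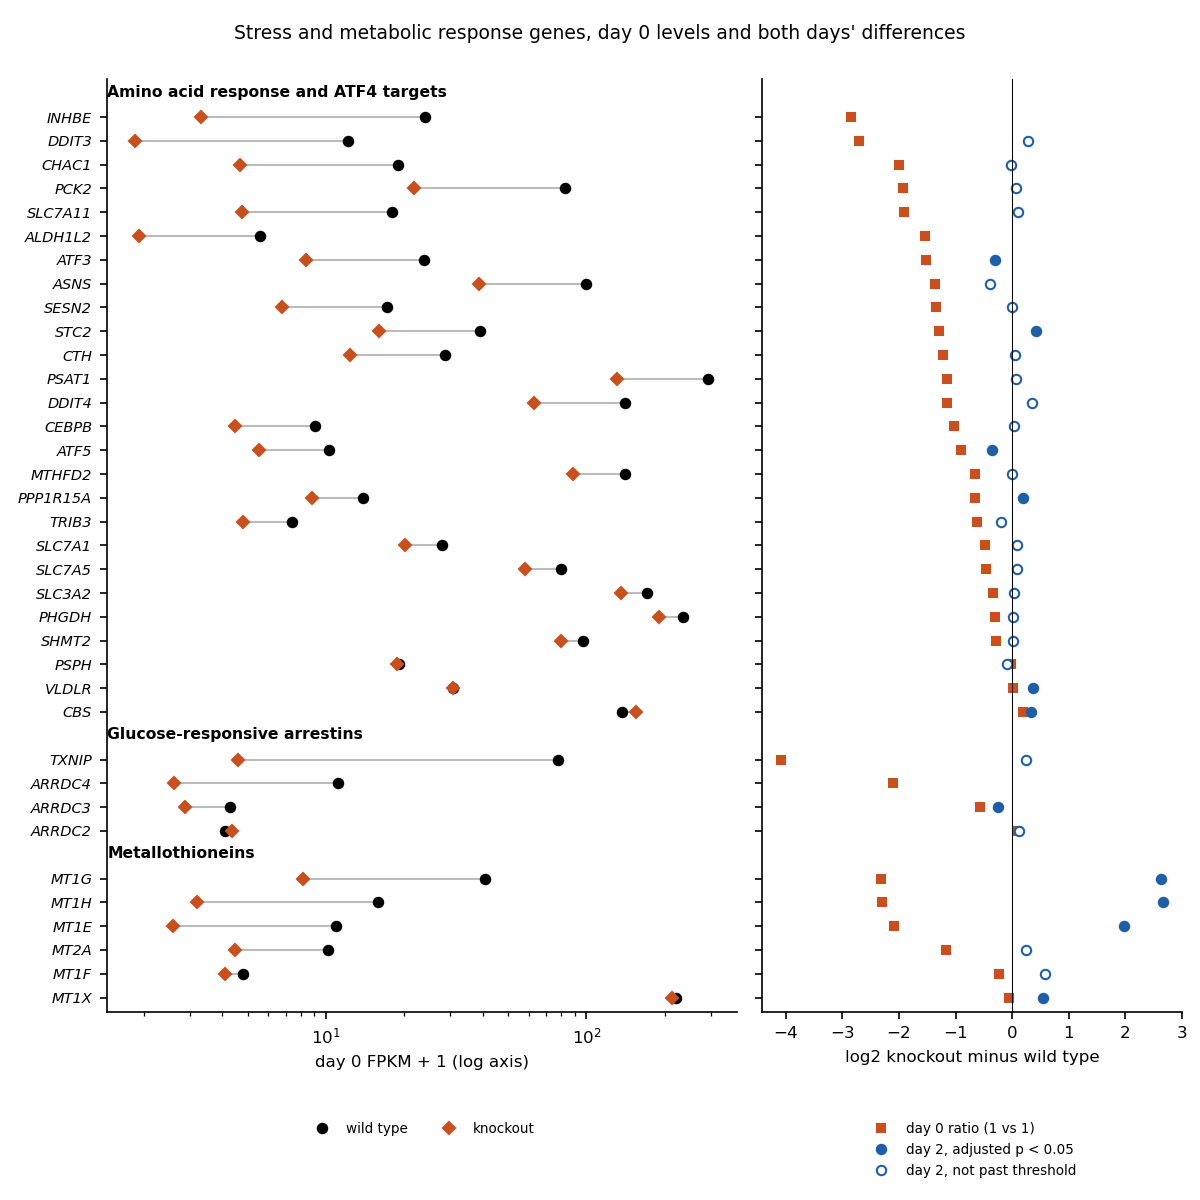
Left, day 0 level (FPKM + 1, log axis) of amino acid response genes, glucose-responsive arrestins and metallothioneins in wild type (black) and knockout (orange). Right, the day 0 ratio (squares, 1 library each) and the day 2 log2 fold change (circles, 3 libraries each, filled where adjusted p is under 0.05). Metallothioneins MT1G, MT1H and MT1E lie left of 0 at day 0 and right of 0 at day 2, while most amino acid response genes sit near 0 at day 2.

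Metallothioneins, small cysteine-rich proteins that bind zinc and copper, were lower in the knockout library for all 6 members measured, 4 of them past 1.5-fold. MT1G had 39.9 FPKM in wild type and 7.196 FPKM in the knockout, MT1H had 14.8 and 2.20 FPKM, MT1E had 9.91 and 1.58 FPKM, and MT2A had 9.16 and 3.49 FPKM. The most abundant member, MT1X, hardly differed, at 219 and 212 FPKM, a ratio of -0.05. The windows of MT1H, MT2A and MT1X hold 8, 7 and 4 matches to the metal response core. These genes are near-identical copies in a cluster on chromosome 16, and how reads were shared among them is not given in the sources used here.

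At day 2, 4 of the 6 metallothioneins rose in the knockout and none fell, where 12.3% and 11.0% of all genes tested did. MT2A, past 1.5-fold at day 0, had a day 2 log2 fold change of 0.24 (adjusted p = 0.359), and MT1F one of 0.58 (adjusted p = 0.175). MT1G had 0.724, 0.499 and 0.199 CPM in the 3 wild-type libraries and 3.05, 3.01 and 2.72 CPM in the 3 knockout libraries. MT1H had 0.0362, 0.187 and 0.464 CPM in wild type and 0.874, 1.95 and 1.75 CPM in the knockout. The genotypes did not overlap for either gene, as was the case for 37.7% of all genes tested. MT1G rose by 2.64 (adjusted p = 2.07e-08), MT1H by 2.66 (adjusted p = 8.74e-05) and MT1E by 1.97 (adjusted p = 1.69e-06) on the log2 scale in edgeR's test. All 3 stood at only a few CPM there. The wild-type means of MT1G, MT1H and MT1E were 0.474, 0.229 and 0.544 CPM, so their fold changes start from very low levels. Whether the days differ was not tested, since they are in separate tables and units.

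The core pluripotency factors stayed within 1.5-fold except NANOG. POU5F1 had 149 FPKM in wild type and 113 FPKM in the knockout, SOX2 had 157 and 113 FPKM, and LIN28A, an RNA-binding protein of stem cells, had 473 and 445 FPKM. NANOG was higher, at 13.7 and 22.3 FPKM, a ratio of 0.67. In bulk samples a smaller share of cells with a transcript and less of it per cell cannot be told apart. Of 29 primed pluripotency genes, 5 were at least 1.5-fold higher and 3 at least 1.5-fold lower, and the median was 0.29.

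L1TD1, an RNA-binding protein needed for self-renewal, had 97.5 FPKM in wild type and 206 FPKM in the knockout. DNMT3B, the de novo DNA methyltransferase of primed cells, had 318 and 527 FPKM, and GDF3, a TGF-beta family ligand, had 2.08 and 9.76 FPKM. The lower genes included ZIC2 (62.3 and 35.6 FPKM), a zinc finger factor of primed and neural progenitor cells, and CRABP1 (253 and 168 FPKM), which binds retinoic acid. PODXL, which carries the TRA-1-60 epitope, was near the limit at 506 and 346 FPKM.

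Genes that respond to Nodal and Activin were higher in the knockout library, with 7 of 12 past 1.5-fold, 1 past it on the lower side and a median of 0.68. LEFTY1, a secreted Nodal antagonist and itself a Nodal target, had 0.0311 FPKM in wild type against 11.8 FPKM in the knockout, a ratio of 3.64. It was the highest ratio among named genes of at least 5 FPKM. LEFTY1 reached 1 FPKM only in the knockout. Its exons and those of LEFTY2 overlap another gene's on the same strand, so part of their reads cannot be assigned with certainty. NODAL exons overlap another gene's on the other strand only. NODAL itself had 1.13 and 5.25 FPKM, LEFTY2 had 1.41 and 3.46 FPKM, and CER1, a further secreted antagonist, had 2.95 and 5.32 FPKM. SMAD7, the inhibitory SMAD, stood at 2.28 and 7.83 FPKM, and SKIL, a SMAD co-repressor, at 22.2 and 36.1 FPKM.

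The receptors and cofactors of the same pathway hardly differed: TDGF1, the Nodal co-receptor, had 249 and 261 FPKM, FOXH1 had 26.7 and 23.8 FPKM, and ACVR2B had 12.6 and 12.9 FPKM. FST, which binds and blocks Activin, was the lower member, at 7.03 and 3.41 FPKM. EOMES and GSC, targets that mark differentiation, were both under 1 FPKM.

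At day 2 NODAL and the antagonists LEFTY1 and LEFTY2 were lower in the knockout, while CER1 rose by 0.17 (adjusted p = 8.92e-06). LEFTY1 had 11.2, 11.9 and 11.8 CPM in wild type and 8.99, 8.82 and 9.11 CPM in the knockout, and fell by 0.38 on the log2 scale (adjusted p = 0.00474). NODAL had 8.21, 9.16 and 9.55 CPM in wild type and 6.89, 7.10 and 5.58 CPM in the knockout, and fell by 0.46 (adjusted p = 0.00548). NANOG, with 7.27, 7.76 and 7.86 CPM in wild type and 5.12, 4.52 and 5.78 CPM in the knockout, fell by 0.57 (adjusted p = 0.00127). GDF3 rose by 0.67 (adjusted p = 0.00702), and it and CER1 moved in the direction of their day 0 ratios. Of the 12 Nodal list genes tested at day 2, 5 rose and 6 fell, where 12.3% and 11.0% of all genes tested did.

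Of 19 targets of BMP signalling in the table, 10 stayed under 1 FPKM. The other 9 had 5 past 1.5-fold on the higher side and 1 on the lower, against 4.81% and 8.77% of all genes. The 5 include SMAD7, also counted among Nodal targets, and HEY1 (0.460 and 1.25 FPKM), which reached 1 FPKM only in the knockout. ID3, an inhibitor of basic helix-loop-helix factors, had 11.9 FPKM in wild type and 25.2 FPKM in the knockout, BAMBI, a decoy receptor, had 7.37 and 14.1 FPKM, and ID2 had 6.23 and 9.99 FPKM. ID1, the most abundant member, had 47.2 and 41.2 FPKM, and ID4 was lower, at 4.47 and 2.14 FPKM.

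FGF and ERK response genes differed in both directions. Several feedback inhibitors and ETS factors were higher: IL17RD at 6.58 and 20.6 FPKM, DUSP5 at 4.67 and 13.9 FPKM, DUSP6 at 11.4 and 23.8 FPKM, SPRY4 at 18.99 and 41.2 FPKM, and ETV4 at 30.7 and 64.0 FPKM. Several immediate early genes of the same list were lower: MYC, the growth transcription factor, had 14.99 FPKM in wild type against 2.45 FPKM in the knockout, a ratio of -2.21, FOS had 14.3 and 5.45 FPKM, and EGR1 had 21.5 and 9.22 FPKM. Across the list 7 of 21 were past the limit on the higher side and 4 on the lower, and the median was 0.14. Of 18 immediate early genes, 6 were lower and 1, ZFP36, was higher. MYC was level between the genotypes at day 2, with 103 to 113 CPM in wild type and 104 to 113 CPM in the knockout (adjusted p = 0.887), while FOS rose by 0.50 (adjusted p = 8.1e-07) and EGR1 by 0.44 (adjusted p = 3.6e-05).

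**Figure D3:**
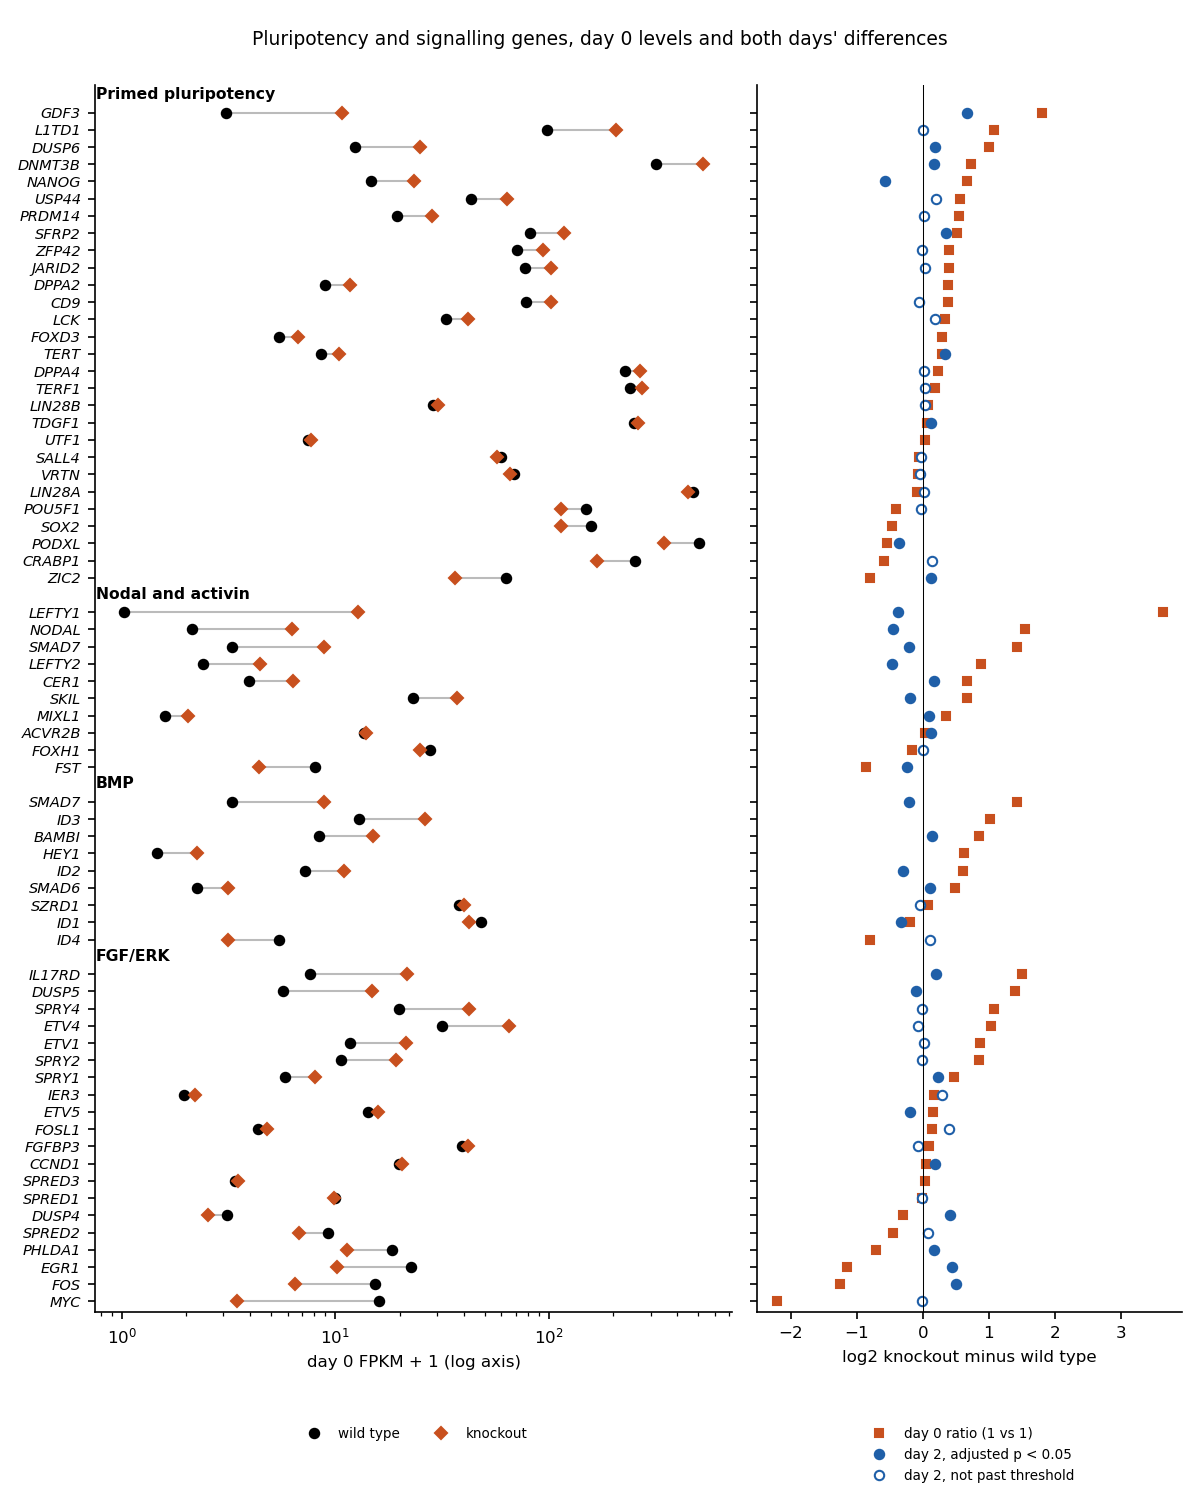
Left, day 0 level (FPKM + 1, log axis) of primed pluripotency, Nodal and Activin, BMP and FGF/ERK genes in wild type (black) and knockout (orange). Right, the day 0 ratio (squares, 1 library each) and the day 2 log2 fold change (circles, 3 libraries each, filled where adjusted p is under 0.05). LEFTY1 and NODAL lie right of 0 at day 0 and left of it at day 2, and MYC, the lowest member at day 0, lies at 0 at day 2.

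Wnt genes leaned lower without a single common response. Of 12 Wnt target genes at 1 FPKM or more, 3 were at least 1.5-fold lower and none higher, with a median of -0.40: MYC, RHOU (4.83 and 2.46 FPKM) and BMP4 (3.51 and 2.00 FPKM). AXIN2, a widely used readout of Wnt signalling, had 8.92 and 7.97 FPKM, and CTNNB1, which encodes beta-catenin, had 78.2 and 90.0 FPKM. LEF1, SP5 and DKK1 were all under 1 FPKM. Among 38 ligands, receptors and components, 6 were lower and 4 higher. SFRP1, a secreted Wnt inhibitor, had 176 FPKM in wild type and 79.0 FPKM in the knockout, while its relative SFRP2 had 81.1 and 116 FPKM. APC, of the beta-catenin destruction complex, had 2.36 and 4.70 FPKM.

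Genes of other lineages gave small sets. OTX2, a factor of epiblast and forebrain, had 16.2 FPKM in wild type and 7.20 FPKM in the knockout, and NCAM1 had 2.32 and 1.18 FPKM, while TUBB3, a neuronal tubulin, was higher (values above). TUBB3 exons overlap those of another transcript, and 3 of 11 neural genes were lower against 1 higher. KRT7, a simple-epithelium keratin, had 19.6 and 7.42 FPKM, and GABRP, a GABA receptor subunit seen in amnion, was lower as well. AFP, a fetal plasma protein of endoderm, had 1.33 and 4.29 FPKM. Of 14 endoderm list genes in the table, 8 stayed under 1 FPKM. The other 6 were above 0, 4 past the limit, among them LEFTY1, LEFTY2 and CER1. LEFTY1 and CXCR4 reached 1 FPKM only in the knockout, so their sign followed from the 1 FPKM minimum. Of all 13284 genes, 6134 were above 0 and 4.81% were past the limit on the higher side.

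Genes of glycolysis and the hypoxia response were mostly higher in the knockout library, with 26 of 31 above 0 and a median of 0.27. Of these 31, 5 were at least 1.5-fold higher and 3 lower, against 4.81% and 8.77% of all genes. LDHA, which makes lactate, had 92.5 FPKM in wild type and 206 FPKM in the knockout, PDK1, which holds pyruvate back from mitochondria, had 3.09 and 8.47 FPKM, and SLC2A1, the glucose transporter GLUT1, had 56.9 and 90.4 FPKM. The 3 members at least 1.5-fold lower were DDIT4, NDRG1 and VEGFA, stress or hypoxia response genes. Cholesterol synthesis genes had 20 of 26 above 0, where 6134 of all 13284 genes were. Past the limit were 3 on the higher side, among them HMGCS1 at 56.6 and 119 FPKM, and 1 on the lower, TM7SF2 at 19.3 and 11.0 FPKM. At day 2 none of these 26 rose and 21 fell, where 12.3% and 11.0% of all genes tested did.

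Cytosolic chaperones were also higher. HSPA8, the constitutive HSP70, had 395 FPKM in wild type and 869 FPKM in the knockout, HSP90AA1 had 199.8 and 323 FPKM, and DNAJA1 had 55.8 and 90.9 FPKM. HSPB1, BAG3 and DNAJB1, which are induced by heat, had 88.1 and 66.0, 5.65 and 4.60, and 34.1 and 28.9 FPKM. In all, 4 of 15 heat shock genes were past the limit on the higher side and none on the lower, against 4.81% and 8.77% of all genes. At day 2 none of 12 rose and 6 fell, HSPA8 by 0.24 (adjusted p = 6.41e-08, edgeR), where 12.3% and 11.0% of all genes tested did.

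Splicing factors of the hnRNP and SR families had 30 of 33 members above 0, where 6134 of all 13284 genes were. Past the limit were 7 on the higher side and 1 on the lower, against 4.81% and 8.77% of all genes. HNRNPR had 22.7 FPKM in wild type and 72.6 FPKM in the knockout, HNRNPM had 73.7 and 160 FPKM, and SRSF4 had 26.6 and 54.3 FPKM. Cytosolic ribosomal protein genes leaned the other way, with 74 of 83 below 0 and a median of -0.28. Only 6 were 1.5-fold lower and 2 higher, so neither share exceeded that of all genes. RPL22L1, a paralog of RPL22, was higher, at 43.7 and 96.98 FPKM. Proteasome subunit genes had 31 of 35 above 0 with a median of 0.22. At day 2 the proteasome and cytosolic ribosomal genes both went down, 22 of 35 and 39 of 81, with 0 and 1 rising. Of all genes tested at day 2, 11.0% fell and 12.3% rose.

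Histone genes lay on both sides, with ratios from -1.75 to 1.42. H1F0, a linker histone of slowly dividing and differentiating cells, had 245 FPKM in wild type and 72.1 FPKM in the knockout, while HIST1H1C, a linker histone of the replication-dependent cluster, had 5.69 and 17.0 FPKM. HIST1H4H had 1.602 and 5.39 FPKM and HIST1H2BK had 4.70 and 12.5 FPKM. In all, 7 of 26 were past the limit on the higher side and 3 on the lower, against 4.81% and 8.77% of all genes. H1F0 rose by 0.51 at day 2 (adjusted p = 7.07e-14), with 268 to 287 CPM in wild type and 388 to 407 CPM in the knockout. Most messages of the replication-dependent cluster lack a poly(A) tail.

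Interferon-associated genes had 4 of 20 past the limit on the lower side and none on the higher, with a median of -0.31. Of all genes, 8.77% and 4.81% were. BST2, the antiviral membrane protein tetherin, had 142 FPKM in wild type and 39.5 FPKM in the knockout, IFI6 had 3.94 and 1.20 FPKM, and HLA-B had 11.9 and 6.41 FPKM. GPX1, a selenium-dependent peroxidase, had 96.0 and 30.4 FPKM, and was lower at day 2 as well (fell by 0.18, adjusted p = 0.000518). Of 23 genes of H3K4 methylation enzymes, SETD7 alone was past the limit.

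**Figure D4:**
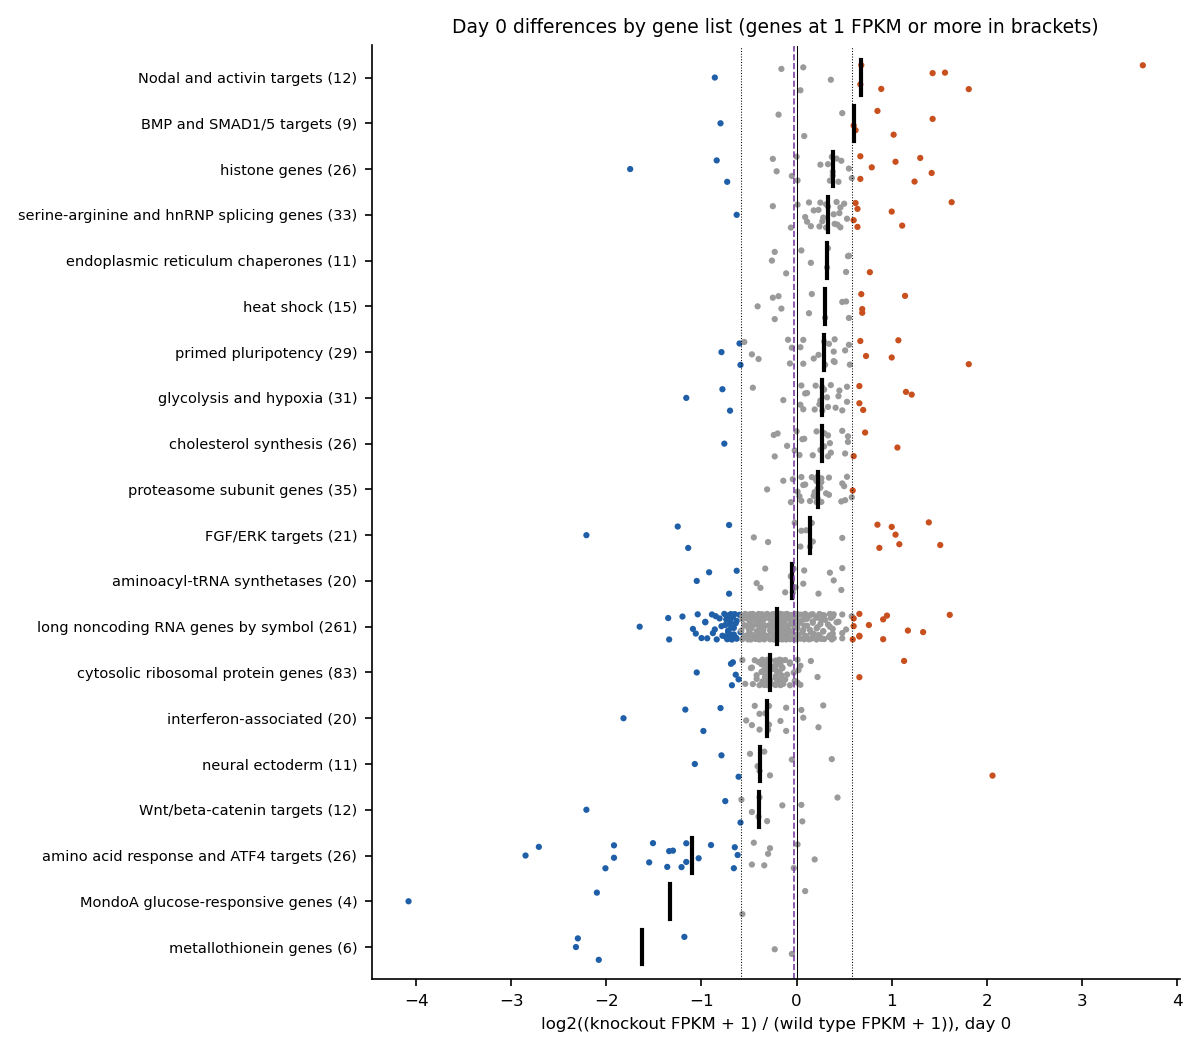
Day 0 ratio of each gene at 1 FPKM or more in 20 gene lists (points, with numbers of genes in brackets), with orange and blue for at least 1.5-fold higher and lower, dotted lines at 1.5-fold, black bars for list medians and a dashed line at the median of all genes, -0.03. Medians run from -1.63 for metallothioneins to 0.68 for Nodal and Activin targets.

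Some of the most extreme ratios belong to genes whose exons overlap a neighbour, which is common in the table as a whole. Of the 15 highest ratios among named genes of at least 5 FPKM, 7 overlap another gene's exons, as do 7 of the 15 lowest, against 50.5% of all genes compared. On the same strand 4 of the 15 highest and 7 of the 15 lowest overlap, against 16.96% of all genes. TMEM189-UBE2V1, a readthrough of 2 genes, was listed at 0 in wild type and had 6.89 FPKM in the knockout, and RPL36A-HNRNPH2, also a readthrough, had 30.9 and 137 FPKM. Those values depend on how an estimator divides reads among overlapping models and are uncertain. Genes with no such neighbour include YTHDF2, a reader of m6A in mRNA (12.1 and 46.9 FPKM), HNRNPR, GMFB, the glia maturation factor beta (9.69 and 30.7 FPKM), and the stem cell RNA LINC00458 (21.1 and 66.2 FPKM). GADD45G, a growth arrest gene, had 12.7 and 2.21 FPKM on the lower side. CUZD1, with 26.1 and 1.58 FPKM, overlaps FAM24B, which was listed at 0 in the knockout and had 2.89 FPKM in wild type.

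The differences were spread over the genome. Chromosome medians lay between -0.07, on chromosome 19, and 0.01, on chromosome 13, with 0.23 for the mitochondrial genome. Over 238 windows of 10 Mb with at least 20 genes, the medians ran from -0.31 to 0.19. Transcript composition moved with the ratio: in the fifth of genes with the lowest GC content the median was 0.04 and 4.56% were 1.5-fold lower, and in the fifth with the highest GC content the median was -0.09 and 12.1% were lower. Long intergenic and antisense RNAs were past 1.5-fold more often than protein-coding genes on both sides, lower in 14.6% and 14.1% against 8.38% and higher in 8.26% and 6.28% against 4.63%. The ratio also rose with level, with Spearman's rho of 0.17 against the mean log2 level across genes. Among the 2723 genes with 2 to 5 FPKM in the higher library the median was -0.115, with 114 higher and 334 lower. Among the 1259 at 50 FPKM or more it was 0.065, with 85 higher and 61 lower. The part of level in the gene group results was not tested, and that of GC content not beyond the GC-adjusted values given in the closing section.

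The day 2 libraries give an independent look at the genes past 1.5-fold at day 0. Of the 639 higher genes, 502 were tested at day 2, of which 58 (11.6%) rose and 86 (17.1%) fell. Of the 1165 lower genes, 761 were tested, of which 154 (20.2%) rose and 46 (6.04%) fell. Over all 10995 genes in both comparisons 11.8% rose and 10.9% fell. Genes lower at day 0 therefore rose at day 2 at a larger share than the background and fell at a smaller one, and most genes past the limit at day 0 were not called at day 2 in either direction.

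Across the 10995 genes the day 0 ratio and the day 2 log2 fold change had Pearson's r of -0.14 and Spearman's rho of -0.16, and 43.6% of genes had the same sign on both days. This is a correlation across genes, which are not independent replicates, and it is given as a description. GC content moved with both comparisons in opposite directions, with rho of -0.13 at day 0 and 0.14 at day 2, and r was -0.13 once the GC and length trends were removed from the day 0 ratios. At 20 FPKM or more at day 0 (3533 genes) r was -0.15. The days also differ in table, unit and number of libraries, which cannot be told apart from the stage of the cells.

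Of 105 genes at least 2-fold higher at day 0 and tested at day 2, 20 (19.05%) rose and 20 fell. Of 150 at least 2-fold lower, 35 (23.3%) rose and 11 (7.33%) fell. Among all genes in both comparisons 11.8% rose and 10.9% fell. Those named next, which have the same direction on both days, were chosen after their values were seen. ANXA1, a phospholipid-binding annexin, had 0.306 and 3.30 FPKM and rose by 1.01 at day 2 (adjusted p = 1.63e-14). TCEAL5, an X-linked elongation factor relative, had 2.51 and 0.699 FPKM and fell by 2.66 (adjusted p = 9.58e-09). SERPINB9, a granzyme B inhibitor, had 41.3 and 19.8 FPKM and fell by 0.34 (adjusted p = 1.03e-10). SOCS2, a cytokine signalling inhibitor, had 10.6 and 4.13 FPKM and fell by 0.39 (adjusted p = 3.41e-06).

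**Figure D5:**
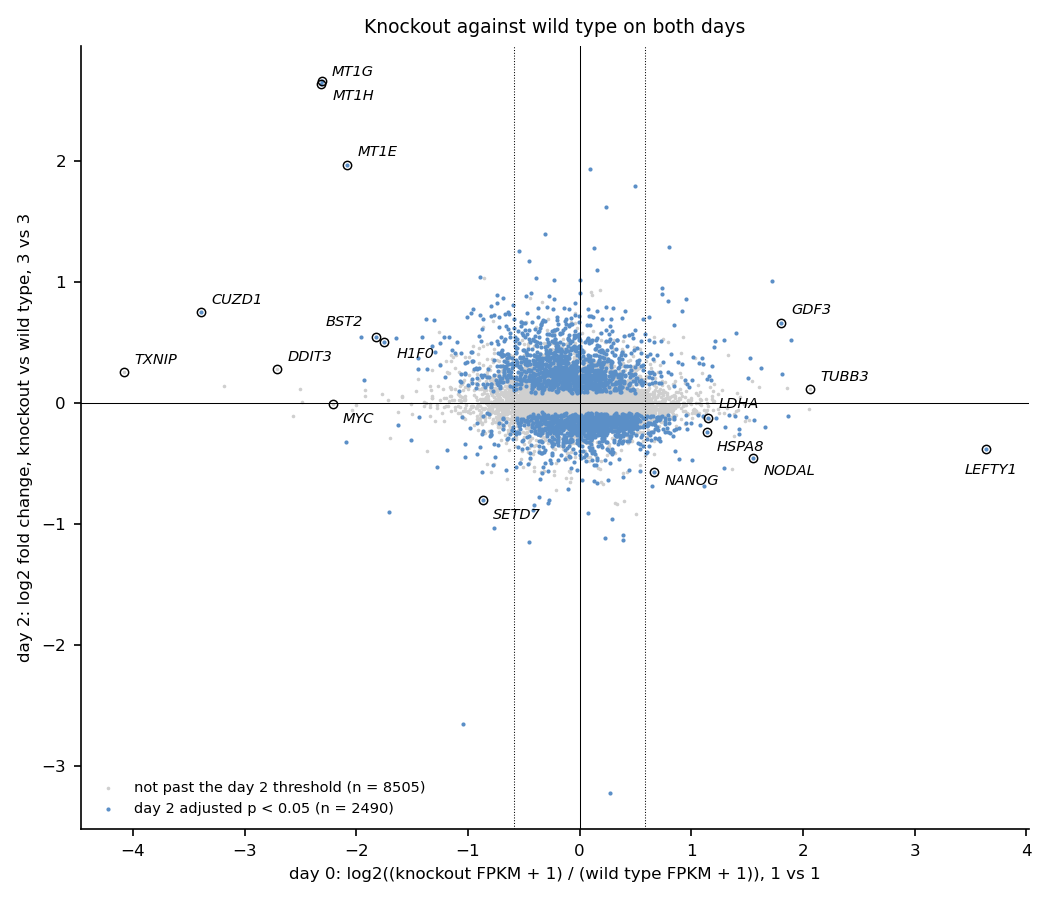
Day 0 ratio (x axis, 1 library per genotype) against the day 2 log2 fold change (y axis, 3 libraries per genotype) for the 10995 genes in both comparisons, blue where the day 2 adjusted p is under 0.05, dotted lines at 1.5-fold. SETD7 lies below 0 on both axes, MT1G, MT1H and MT1E lie at the upper left, and TXNIP, DDIT3 and MYC lie far left near 0 on the day 2 axis.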

How the data were processed

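The authors deposited day 0 levels as FPKM per gene, 1 column per genotype, and day 2 levels as counts per gene for 6 libraries. HISAT2 and StringTie on GRCh38 (hg38) are listed per the submitters' processing notes, without versions. Strand handling and the sharing of reads among overlapping genes are not stated there. Per the labels' protocols, total RNA from TRIzol went into libraries of a SMARTER mRNA kit.

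Day 0 ratios were computed as log2((knockout + 1)/(wild type + 1)) wherever either library reached 1 FPKM, with 1.5-fold as the limit. No test fits 1 library against 1. At day 0, 24 gene symbols had turned into dates and were restored through their Ensembl IDs, 14055 of 14070 IDs matched GENCODE 29, and an unheaded column of 434 gene names was not used. Day 2 counts were filtered by expression, TMM-normalized and tested with edgeR 4.0.16 (quasi-likelihood, Benjamini-Hochberg adjusted p under 0.05 over 11475 genes, R 4.3.3). On simulated counts with 200 of 11463 genes changed 1.5-fold, 91% were recovered and 6.67% of the calls were false. Exon overlaps were found with bedtools 2.31.1. Matching of both tables was by symbol.

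Named genes were SETD7, core pluripotency and mesoderm genes, the 15 largest ratios each way among genes reaching 5 FPKM, genes listed at 0 in a single library, and up to 5 genes of each of 67 lists with the ratio of largest size. Some genes that the rule picked are not reported here. Others were named for their role after their values were seen, among them further amino acid response, chaperone and signalling genes. The members and lists were chosen with earlier results of these data known, and 5 of the 67 lists, the motifs and the promoters shown were chosen after the values had been seen. Those 5 are the amino acid response, endoplasmic reticulum chaperone, aminoacyl-tRNA synthetase, MondoA glucose-responsive and chaperonin CCT lists. Alternatives were pseudocounts of 0.1 and 5 FPKM, other minimum levels, a 2-fold limit, centring, rescaling to equal totals, DESeq2 1.42.0 at day 2, no filter, a replicate block, and each day 2 library left out. Genes without exon overlap, and ratios with GC and length trends removed, were added after seeing the data.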

Additional observations from a re-analysis of the deposited data

Results flagged for a closer look

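Among the named genes, 24 were at least 2-fold apart at day 0 and were called in the opposite direction at day 2, where no knockout library overlapped a wild-type library. The difference between the days was not tested. Named genes called in the same direction on both days, such as GDF3 and GPX1, are not in this count. Of all 105 genes at least 2-fold higher at day 0 and tested at day 2, 20 rose and 20 fell. Of the 150 at least 2-fold lower, 35 rose and 11 fell. Among the 24, the 12 that were higher in the knockout at day 0 were lower at day 2, with day 2 log2 fold changes as follows. LEFTY1 was at -0.38, NODAL at -0.46 and SMAD7 at -0.21 among Nodal genes. HSPA8 was at -0.24, LDHA at -0.13, HMGCS1 at -0.10, HIST1H1C at -0.26, DUSP5 at -0.10 and HNRNPM at -0.11. TPST2, a tyrosylprotein sulfotransferase, was at -0.20, GMFB at -0.14 and YTHDF2 at -0.10. The other 12 were lower at day 0 and higher at day 2. MT1G was at 2.64, MT1H at 2.66 and MT1E at 1.97. CUZD1 was at 0.75 and FAM24B, which overlaps it, at 0.54. BST2 was at 0.55, GDF15 at 0.55, H1F0 at 0.51, FOS at 0.50 and EGR1 at 0.44. SLC6A6, the taurine transporter, was at 0.24 and the noncoding TSPEAR-AS2 at 0.53.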

How the results depend on the processing

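With a pseudocount of 5 FPKM, 270 genes were at least 1.5-fold higher in the knockout and 346 lower, and the SETD7 ratio was -0.40. With a minimum of 5 FPKM 757 genes were lower, at 2-fold the counts were 152 and 252, and among genes with no exon overlap (6570 genes, chosen after seeing the data) 318 and 589, or 4.84% and 8.96%. These follow from the alternatives' own construction: smaller ratios, a higher limit or fewer genes. The higher genes made up 35.4% of all past the limit, 43.8% with a pseudocount of 5 FPKM and 40.9% after centring on the median (725 higher, 1047 lower). Of 1762 recomputed ratios of named genes 194 moved by over 1.5 times and none reversed. The median of the amnion and trophoblast list went from -0.45 to 0.040 with no minimum, which adds genes near 0. That of the Nodal and Activin list went from 0.68 to 0.31 in the same way. With GC and length trends removed the median was -1.04 for the amino acid response list, -1.52 for metallothioneins and 0.65 for Nodal and Activin targets.

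Counts of genes past the limit at day 0 and called at day 2 are given in the order higher on both days, higher then lower, lower then higher, and lower on both days. They were 20, 20, 35 and 11 at 2-fold, and 34, 48, 58 and 20 with a pseudocount of 5 FPKM. Without overlapping genes the last 3 were 41, 86 and 27. Leaving out each day 2 library gave 51 to 57, 66 to 89, 125 to 140 and 30 to 49, the lowest value of the last, 30, without WT day 2 replicate 2, whose cause was not tested. Day 2 calls alone ranged from 1098 to 1307 higher and 907 to 1202 lower. With the replicate number as a block at day 2, 1205 genes rose and 1005 fell, against 1406 and 1262 without it. Libraries with the same number did not deviate together (correlations -0.0728, -0.0721 and -0.0373). This shows no shared deviation by number, and cannot show whether same-numbered samples were collected together.

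Day 0 differences carry no replicate error, and the depth behind them is unknown. A gene under a few FPKM rests on an unknown number of reads.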

Other observations

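Counts in receptor and matrix gene lists stand beside 8.77% of all genes at least 1.5-fold lower in the knockout library and 4.81% higher. Of 19 ephrin and Eph receptor genes, 7 were at least 1.5-fold lower and none higher, among them EFNB1 (3.02 and 1.11 FPKM), EPHA4 (3.69 and 1.54 FPKM) and EFNB2 (9.98 and 5.83 FPKM), though EPHA1, the most abundant, had 50.5 and 68.6 FPKM and the list's median was -0.07. Of 28 collagen genes, 7 were lower and none higher, among them COL1A1 and the basement membrane chains COL4A5 (14.2 and 8.09 FPKM) and COL4A6 (8.36 and 4.63 FPKM). At day 2, 11 of 22 collagen genes tested rose and 1 fell, where 12.3% and 11.0% of all genes tested did. Laminin and integrin genes had 2 of 25 higher and none lower, with ITGB5 at 83.9 and 139.9 FPKM. Ion channel genes had 6 of 44 lower, a share nearer to that of all genes, and none higher, with SCN4A, a muscle sodium channel, at 5.75 and 1.94 FPKM.

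Notch genes had 3 of 21 lower, HES4 (3.59 and 1.18 FPKM), the ligand DLL1 (1.401 and 0.435 FPKM) and HEYL, and 1, HEY1, higher, both shares near those of all genes. DLL1 reached 1 FPKM only in wild type and HEY1 only in the knockout. Cell cycle genes differed in both directions: CDK2 had 32.8 and 10.9 FPKM, though its exons overlap PMEL, CDK6 had 5.83 and 2.88 FPKM, and CDK4 had 37.8 and 64.8 FPKM. Fatty acid synthesis genes had 3 of 16 higher, with FASN at 60.1 and 105 FPKM, and none lower. HMOX1, which degrades heme, had 4.95 and 11.3 FPKM.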
